A study of Mus musculus with 12 samples.

Results

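The complement and coagulation cascades were followed through 50 listed genes in hepatocytes, macrophages and sinusoidal endothelial cells (SEC) of mouse liver. The genes were taken by symbol, and a gene with several probes was read by the brightest, on the average of all 12 arrays. A probe was named for 48 of the 50 genes, and C3 and Cfd, for which none was, are not analysed here. Of the 48, 45 lay above background and were tested among 12462 genes in all. To count as above background, a probe had to exceed the 95th percentile of 1501 odorant and pheromone receptor probes on both arrays of some group, so a gene could pass through the group where it was highest. The probes of C1ra, a protease of the first complement complex, C3ar1, the receptor of the fragment C3a, and F3, tissue factor, did not pass and read between 7.24 and 7.49 on all 12 arrays. By role the list held 13 complement components, 7 complement regulators and receptors, 4 genes of the lectin pathway, 13 clotting factors and fibrinogen chains, 6 genes of fibrinolysis and the contact system, and 7 anticoagulants.

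Both cascades are chains of plasma proteases, each of which cuts and activates the next. Complement is started by antibodies, by lectins that bind sugars on microbes or by slow spontaneous activation, and it ends in a pore, the membrane attack complex. Coagulation ends in thrombin, which turns fibrinogen into fibrin, and plasmin dissolves that fibrin again. The liver secretes most of these proteins into the blood. Hepatocytes are known as the source of most clotting factors and complement components, liver endothelial cells of factor VIII, and myeloid cells of properdin.

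RNA was measured on Illumina bead arrays in 6 groups of 2 arrays. The DEN groups were hepatocytes, macrophages and SEC of male C57Bl/6 mice, titled WT, that received 25 mg/kg of the liver carcinogen diethylnitrosamine (DEN) into the peritoneum on postnatal day 25, with a follow-up of 9 months and RNA pooled from 3 to 4 mice. The other groups were the same 3 cell types of untreated male C57Bl/6 mice, titled WT and matched for age. The isolation of the cells is not described in the sources used here. Nor do the labels state that replicate arrays are separate pools, so the spread behind each p-value may be no more than technical.

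Levels below are the deposited log2 values, and a change is the DEN level minus the untreated level on that scale, ± SE from limma, n = 2 arrays per group. Adjusted p means limma's moderated test with Benjamini-Hochberg adjustment over the 12462 genes, and a change is called at an adjusted p under 0.05. The 6 groups share 1 spread per gene, while replicate arrays were farther apart in hepatocytes (SD of their difference over genes 0.177 DEN and 0.145 untreated) than in DEN macrophages (0.10) and in the other 3 groups (0.078 to 0.079). Between 14260 and 21552 probes lay above background per array, and every array ended at the same maximum of 15.19, which limits changes of the brightest probes. Because each array holds RNA of a whole preparation, fewer cells of a type and less RNA per cell cannot be told apart.

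The preparations were checked against marker genes, as the log2 of each list's summed linear signal. Hepatocyte markers stood at 16.70 to 16.73 in DEN and 17.05 to 17.06 in untreated hepatocytes, above every other group. The SEC list was highest in the SEC preparations (16.47 to 16.49 DEN, 16.47 on both untreated arrays). Kupffer cell markers, those of the resident liver macrophage, reached only 12.44 to 12.53 in DEN macrophages, against 16.59 to 16.62 in untreated macrophages, and stood at 15.20 to 15.25 in DEN SEC and 15.46 on both untreated SEC arrays. The preparation labelled DEN macrophage thus had less Kupffer cell signal than either SEC group, and the SEC groups carried much of it. Markers of stellate cells and fibroblasts were highest in the SEC preparations too, at 14.39 to 14.64 in DEN and 14.51 to 14.58 in untreated SEC. They reached at most 13.62 in the other groups. A main source below is therefore a preparation and not a pure cell type.

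The first question is which preparation held the most transcript of each factor. A preparation was called the main source of a gene where it exceeded both others of the same treatment with an adjusted p under 0.05 in each comparison. Hepatocytes were the main source of 32 of 45 cascade genes (71.1%) among DEN preparations, against 19.3% of all genes, and of 32 of 45 (71.1%) among untreated preparations, against 23.7% of all genes. SEC were the main source of 9 (20.0%) among DEN preparations and 6 (13.3%) among untreated ones, beside 20.1% and 17.5% of all genes. Macrophages were the main source of 1 gene, Plaur, among DEN preparations (2.22% against 19.6% of all genes) and of C6 and Cfp among untreated ones (4.44% against 14.9%).

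Prothrombin, F2, is an example of the hepatocyte pattern. Its log2 level in DEN hepatocytes exceeded DEN macrophages by 5.30 and DEN SEC by 3.43, and in untreated hepatocytes it exceeded untreated macrophages by 4.80 and untreated SEC by 5.11. For the pore component C9 the lead of DEN hepatocytes was 3.80 over macrophages and 2.95 over SEC, against 5.41 and 5.62 among untreated preparations. The lead over SEC was smaller in the DEN preparations for both genes, and the difference between hepatocytes and SEC in their DEN changes passed the test. A few hepatocyte leads were slight: C4b, the complement protein that attaches to surfaces, exceeded macrophages by 0.35 (adjusted p = 0.00054) in untreated preparations, and Fgb, the fibrinogen beta chain, exceeded them by at least 1.23-fold with a probe near background.

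SEC were the main source of 6 genes with either treatment: F8, Pros1, Thbd, Tfpi, Cd55 and Masp1. The SEC preparations also held the highest stellate cell and fibroblast signal, and its part in these leads was not tested. F8, the clotting cofactor factor VIII, read 12.96 and 12.94 in DEN SEC and 13.21 and 13.13 in untreated SEC. In the other preparations F8 ran from 7.83 to 8.38 in the 4 hepatocyte arrays, at 8.31 and 8.26 in DEN macrophages and at 9.16 and 9.17 in untreated macrophages. The SEC arrays thus stood apart from all others for this gene. The untreated SEC level exceeded untreated hepatocytes 34.7-fold and untreated macrophages 16.1-fold. Tfpi, the inhibitor of the tissue factor pathway, read 9.44 and 9.59 in DEN SEC and 9.42 and 9.41 in untreated SEC, against 8.45 or less elsewhere. A dimmer Tfpi probe was highest in hepatocytes among untreated preparations (a mean of 9.02, against 7.43 or less in SEC and macrophages), so the main source of Tfpi, like that of Masp1, depends on the probe.

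The main source differed between the treatments for 7 genes. C6, a component of the pore, and Cfp, properdin, which stabilises the alternative pathway's convertase, had SEC as main source among DEN preparations and macrophages among untreated ones. Cd59a, a membrane protein that blocks pore assembly, had SEC as main source with DEN and hepatocytes when untreated. Some of these leads were slight. The mean in DEN SEC was 13.73 for Cfp and 11.40 for Cd59a, against 13.37 and 10.94 in DEN hepatocytes. For Cd59a untreated hepatocytes had a mean of 11.49, against 11.08 in untreated SEC. Plaur, the urokinase receptor, had macrophages with DEN and none when untreated, and C2 and Plat had hepatocytes with DEN and none when untreated. Fgb had none with DEN and hepatocytes when untreated. C5ar1, the C5a receptor, and Procr, the endothelial protein C receptor, had no main source with either treatment, and no array of theirs exceeded 7.60.

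**Figure D1:**
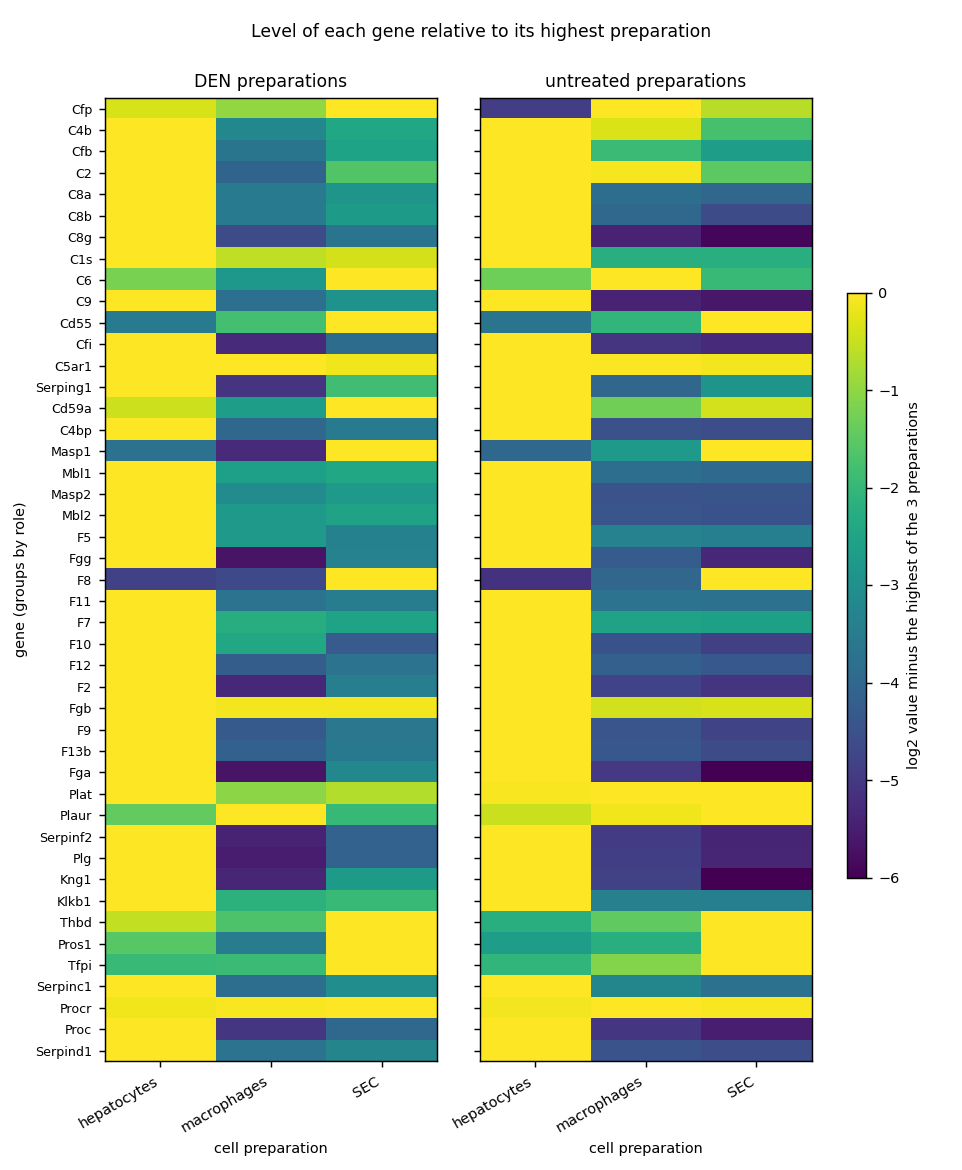
Colour shows the mean log2 level of each of the 45 cascade genes in a preparation minus that in the gene's highest preparation, for the DEN preparations on the left and the untreated ones on the right, with genes grouped by role from top to bottom. Hepatocytes hold the highest level (0) for most genes, F8, Tfpi and Masp1 are highest in SEC on both sides, and C6 and Cfp are highest in SEC with DEN and in macrophages when untreated.

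In the comparison of DEN with untreated hepatocytes, the pore components C6, C8a, C8b, C8g and C9 and 3 of 4 lectin pathway genes fell, 8 of 12 clotting factor and fibrinogen genes did not pass the test, and Cfp (properdin) and Thbd (thrombomodulin) rose most. Of 45 cascade genes 20 were lower (44.4%), beside 36.0% of all genes tested, and 10 were higher (22.2%), beside 31.7% of all genes. The median change was -0.06, against -0.02 over all genes. Among the 32 cascade genes with hepatocytes as untreated main source, 19 were lower and 3 higher, with a median of -0.40. Of all 2959 genes with that main source 83.8% were lower, with a median of -0.71. Since these genes were picked for high untreated hepatocyte levels, the picking itself favours falls in this comparison.

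Other cell types' markers moved in the same preparation. Of the 10 hepatocyte markers 6 were lower. All 7 neutrophil markers, all 5 platelet markers, 6 of 7 SEC markers and 4 of 7 Kupffer cell markers were higher, and 1 Kupffer cell marker was lower. All 5 red cell markers were higher, with a median change of 6.90 and a summed level of 16.83 to 16.85 in DEN hepatocytes, about that of the hepatocyte markers, against 11.21 to 11.38 in untreated hepatocytes. The 4 markers of T and NK cells, the 3 of B and plasma cells, the 3 of cholangiocytes, 4 of 5 of monocytes and 5 of 6 of stellate cells and fibroblasts were higher too. The summed Kupffer cell level was 12.89 to 12.95 in DEN hepatocytes and 11.34 to 11.41 in untreated hepatocytes, and the summed SEC level was 12.80 to 12.85 in DEN hepatocytes and 12.05 to 12.06 in untreated hepatocytes. The summed neutrophil level was 14.76 to 14.78 in DEN hepatocytes and 10.20 to 10.22 in untreated hepatocytes, where all 7 of its markers lay below background. Their part in the changes of cascade genes was not tested.

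In the comparison of DEN with untreated macrophages, most cascade genes fell, led by C6, C2 and Masp1, while F10 and Plaur rose. Of the 45 genes 26 were lower (57.8%), beside 24.3% of all genes tested, and 6 were higher (13.3%), beside 18.6%. The median change was -0.26, against -0.02 over all genes. All 7 Kupffer cell markers were lower in DEN macrophages, with changes from -5.32 to -2.36, and 3 of 10 hepatocyte markers were lower (summed level 12.32 to 12.51 in DEN and 13.05 to 13.06 in untreated macrophages). Of 7 SEC markers 4 were lower and 1 higher (summed level 12.86 to 12.88 in DEN and 13.79 to 13.83 in untreated macrophages), and of 6 markers of stellate cells and fibroblasts 2 were lower and 1 higher (10.52 to 10.61 DEN, 13.29 to 13.38 untreated). All 7 neutrophil markers, 4 of 5 monocyte markers, all 4 of T and NK cells, all 3 of B and plasma cells and all 5 of red cells were higher in DEN macrophages. The summed neutrophil level was 15.49 to 15.82 in DEN and at most 13.01 in untreated macrophages. That of T and NK cells was 15.28 to 15.34 in DEN and 13.48 to 13.52 in untreated macrophages. For red cells it was 15.05 to 15.23 in DEN and 14.36 to 14.38 in untreated macrophages. In DEN macrophages each of these sums exceeded those of monocytes (14.48 to 14.57) and Kupffer cells (12.44 to 12.53). The part of these markers in the changes was not tested.

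In the comparison of DEN with untreated SEC, most genes with hepatocytes as main source rose, led by Kng1 (3.35 ± 0.09), Fga (2.35 ± 0.11) and Fgg (2.11 ± 0.06), and the genes with SEC as main source moved little. Of the 45 genes 26 were higher (57.8%), beside 2.56% of all genes tested, and 1, Cfp, was lower (2.22%), beside 0.995%. Cfp lost that call without DEN SEC replicate 1 or untreated SEC replicate 1. The median change was 0.42, against -0.02 over all genes. Of the 32 genes with hepatocytes as untreated main source 24 were higher (75.0%) and none was lower, beside 6.25% higher among all 2959 such genes. The other 2 risers were Plat, tissue plasminogen activator, and Thbd, thrombomodulin. Of the 6 genes with SEC as main source, only Thbd was called in this comparison (not with background subtracted), and F8 (-0.22), Pros1 (-0.18), Masp1 (-0.01), Cd55 (0.10) and Tfpi (0.10) were not.

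Hepatocyte markers moved with these rises. Of 10, 4 were higher in DEN SEC: the apolipoproteins Apoa1 (3.65) and Apoa2 (2.86), the plasma protein Ahsg (3.53) and the thyroxine carrier Ttr (2.51). The summed level of all 10 was 14.73 to 14.75 in DEN SEC and 12.04 to 12.05 in untreated SEC. The probes of Alb and Tat lay below background in both SEC groups, and Cps1, Ass1, Hpd and Pck1 were not called. On the linear scale, chosen after the data were seen, the rise in SEC amounted to 1.65 to 29.8% of the DEN hepatocyte signal for the 24 cascade genes (median 4.04%). For the 4 called hepatocyte markers it was 19.7 to 25.6%. For all 9 hepatocyte markers above background in DEN hepatocytes it was 1.78 to 25.6%. The shares of Alb, Cps1, Ass1, Hpd and Pck1 among the 9 come from changes that were not called. The median of the 9, 4.65%, is the share of Pck1, which changed by 0.02 in SEC, so it cannot be set beside the median of the cascade genes. Red cell markers were higher too, 5 of 5, with a summed level of at least 15.95 in DEN SEC and 11.35 to 11.38 in untreated SEC. So were all 7 neutrophil markers, with a summed level of 13.41 to 13.48 in DEN SEC and 11.43 on both untreated SEC arrays. Of 5 monocyte markers 2 were higher, as were 2 of 6 of stellate cells and fibroblasts. The part of these markers in the rises was not tested further.

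**Figure D2:**
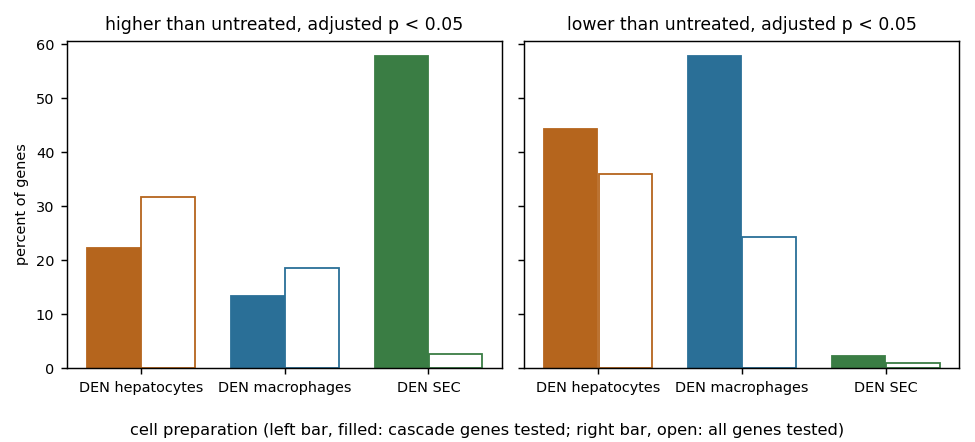
Bars give the percent of genes higher (left panel) or lower (right panel) in each DEN preparation than in its untreated counterpart at a limma adjusted p under 0.05, filled for the 45 cascade genes and open for all 12462 genes tested. The shares differ most for rises in SEC, 57.8% of cascade genes against 2.56% of all genes, and for falls in macrophages, 57.8% against 24.3%.

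The changes themselves differed between preparations. The DEN change in hepatocytes differed from that in macrophages for 36 of 45 cascade genes (80.0%, beside 63.0% of all genes) and from that in SEC for 35 (77.8%, beside 59.6%). The DEN change in macrophages differed from that in SEC for 38 (84.4%, beside 33.0%). The largest of these differences were those of Cfp between hepatocytes and macrophages (5.52 ± 0.07, adjusted p = 6.94e-12) and of C6 between macrophages and SEC (-4.76 ± 0.14, adjusted p = 1.16e-09).

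**Figure D3:**
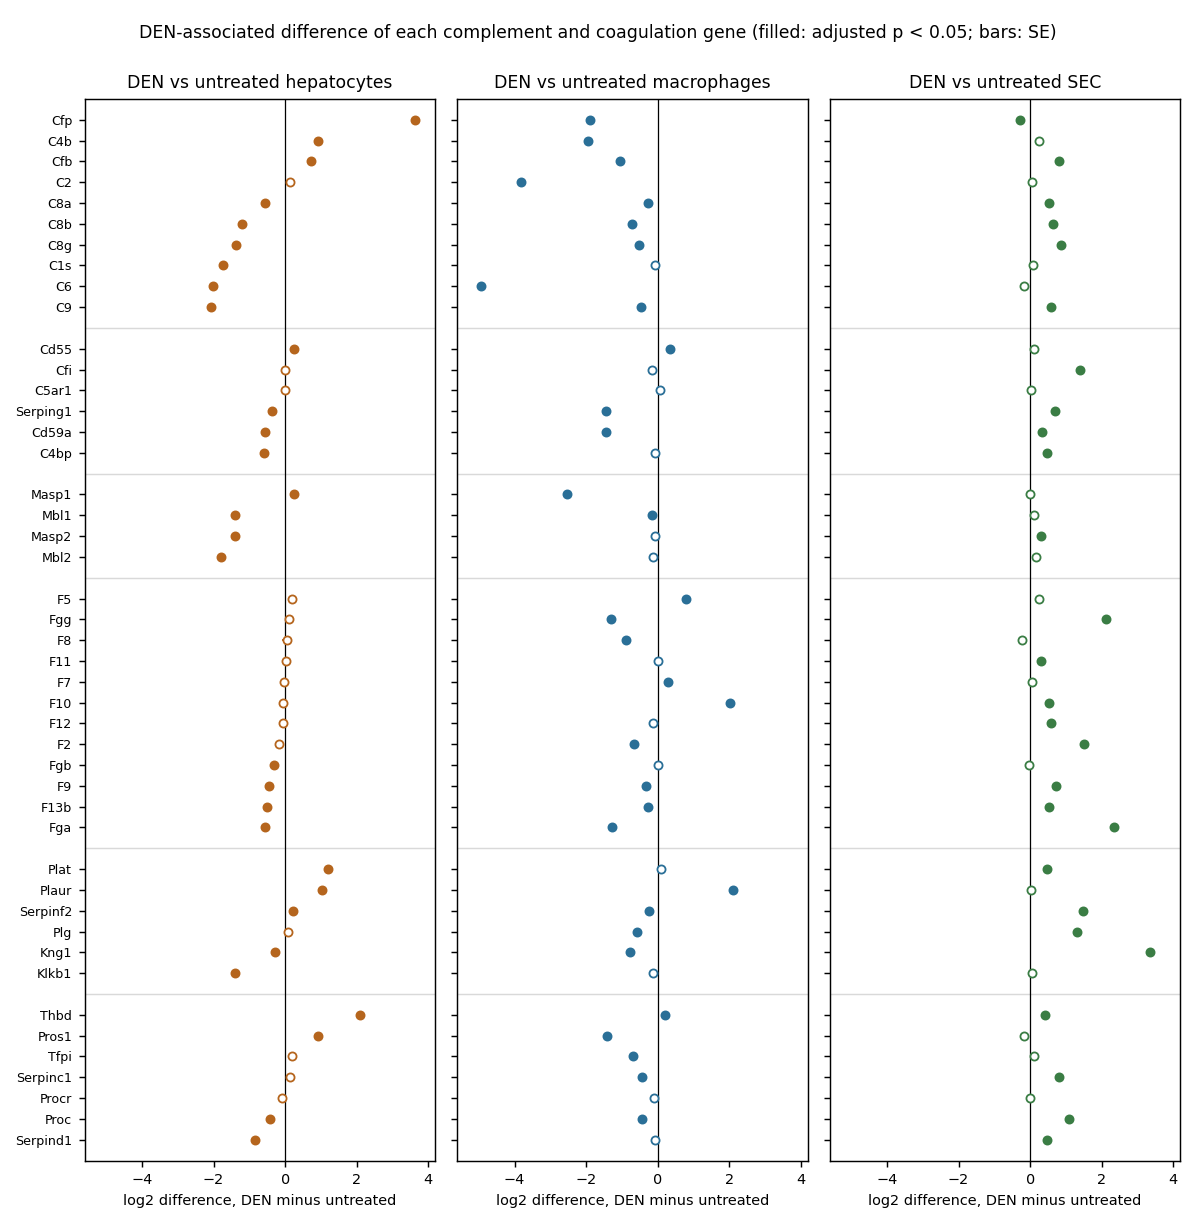
Points give the log2 difference, DEN minus untreated, of each of the 45 cascade genes in hepatocytes, macrophages and SEC, filled where the adjusted p is under 0.05, with SE bars (n = 2 arrays per group) mostly shorter than the symbol and genes grouped by role. Points lie on both sides of 0 in hepatocytes, mostly below 0 in macrophages and mostly above 0 in SEC, where Kng1 lies farthest at 3.35.

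Of the 10 complement components tested, 6 were lower and 3 higher in DEN hepatocytes (median -0.88), 9 were lower in DEN macrophages (median -0.88), and 5 were higher and 1 lower in DEN SEC (median 0.39). Among all genes 36.0% were lower and 31.7% higher in hepatocytes, 24.3% lower in macrophages, and 2.56% higher and 0.995% lower in SEC. Pore components fell in hepatocytes. C9, the subunit that forms the ring of the pore, read 11.29 and 11.18 in DEN hepatocytes, against 13.23 and 13.39 in untreated hepatocytes. The 2 groups were about 2 units apart, with a change of -2.08 ± 0.06 (adjusted p = 1.24e-10). That is the brightest C9 probe, and the other C9 probes fell less, by -0.76 and -1.46 in hepatocytes. C8g and C8b, chains of the pore's eighth component, read 12.24 and 12.56, and 11.05 and 11.26, in DEN hepatocytes. Their untreated hepatocyte arrays read 13.74 and 13.77 for C8g and 12.18 and 12.53 for C8b, all above the DEN arrays of the same gene. C8g changed by -1.36 ± 0.08 and C8b by -1.20 ± 0.10, and the third chain, C8a, by -0.57 ± 0.09.

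The same pore genes rose in SEC. C9 read 8.30 and 8.27 in DEN SEC and 7.70 and 7.69 in untreated SEC (0.59 ± 0.06, adjusted p = 0.000103). C8g read 8.73 and 8.70 in DEN SEC and 7.84 and 7.89 in untreated SEC, a change of 0.85 ± 0.08, and C8b changed by 0.65 ± 0.10 there. These levels stayed far below those of the hepatocyte arrays of the same probes.

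C6 behaved differently from the other pore genes. It read 7.86 and 8.02 in DEN macrophages, against 12.85 and 12.92 in untreated macrophages, a change of -4.95 ± 0.10 (adjusted p = 2.13e-11), the largest fall of the 45 genes in any preparation. It also fell in hepatocytes (9.62 and 9.44 DEN, 11.43 and 11.70 untreated, -2.03 ± 0.10, adjusted p = 7.52e-09). In SEC the change was -0.18 ± 0.10 and was not called (10.78 and 10.70 DEN, 10.99 and 10.85 untreated). A fall of C6 was thus called in 2 preparations. SEC had the highest mean among DEN preparations (10.74, against 9.53 in hepatocytes and 7.94 in macrophages) and the lowest among untreated ones (10.92, against 11.56 and 12.88).

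Of the genes of the convertases, the proteases that cut C3, Cfp, C4b and Cfb rose in hepatocytes and fell in macrophages, and C2 fell in macrophages. Properdin, Cfp, read 13.39 and 13.36 in DEN hepatocytes, against 9.77 and 9.72 in untreated hepatocytes, the largest rise of the 45 genes there (3.63 ± 0.05, adjusted p = 8.22e-13). In macrophages it fell, to 12.75 and 12.78 in DEN arrays, against 14.62 and 14.69 in untreated arrays (-1.89 ± 0.05, adjusted p = 1.52e-10). In SEC it fell by 0.28 on the log2 scale (13.71 and 13.74 DEN, 14.02 and 13.98 untreated, adjusted p = 0.00656). Its order across preparations was SEC, hepatocytes and macrophages with DEN, and macrophages, SEC and hepatocytes when untreated, and each step of both orders passed the test. Of the 7 Kupffer cell markers in DEN hepatocytes, Adgre1 changed by 3.59, Marco by 2.45, Timd4 by 0.63, Vsig4 by 0.50 and Clec4f by -0.57, and Cd163 (0.16) and Folr2 (0.05) were not called. Their part in the changes of Cfp was not tested.

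C4b read 13.03 and 13.06 in DEN hepatocytes, against 12.16 and 12.13 in untreated hepatocytes (0.91 ± 0.06, adjusted p = 2.14e-07). That is its brightest probe, and its other probes changed by -0.06 and -0.18 in hepatocytes. It read 9.93 and 9.75 in DEN macrophages, against 11.75 and 11.83 in untreated macrophages (-1.95 ± 0.06, adjusted p = 1.22e-09). The arrays of the groups did not overlap in either preparation, and its change in SEC (0.24 ± 0.06) was not called. Cfb, the protease of the alternative pathway's convertase, had the same directions in these preparations, at 13.01 and 13.06 in DEN and 12.25 and 12.40 in untreated hepatocytes (0.71 ± 0.11). In macrophages Cfb read 9.17 and 9.58 with DEN and 10.45 and 10.40 untreated (-1.05 ± 0.11, adjusted p = 1.34e-05), and in SEC 10.56 and 10.43 with DEN and 9.67 and 9.71 untreated (0.81 ± 0.11). Cfb therefore rose in 2 preparations and fell in 1.

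C2, the protease of the classical convertase, was called in 1 preparation. It read 7.87 and 7.72 in DEN macrophages, against 11.62 and 11.61 in untreated macrophages (-3.82 ± 0.08, adjusted p = 3.8e-11). In hepatocytes the groups overlapped (11.79 and 11.91 DEN, 11.59 and 11.80 untreated, adjusted p = 0.118), as they did in SEC (10.30 and 10.17 DEN, 10.19 and 10.18 untreated). C1s, the protease that cuts C4 and C2 and is annotated as C1s1, read 8.05 and 7.92 in DEN hepatocytes, against 9.77 and 9.69 in untreated hepatocytes (-1.75 ± 0.05, adjusted p = 2.57e-10). Its changes in macrophages (-0.06) and SEC (0.09) were not called.

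Among the 6 tested regulators and receptors of complement, 3 were lower and 1 higher in DEN hepatocytes, 2 lower and 1 higher in DEN macrophages, and 4 higher and none lower in DEN SEC. The shares of all genes were 36.0% lower and 31.7% higher in hepatocytes, 24.3% and 18.6% in macrophages, and 2.56% higher in SEC. Serping1, the inhibitor of the first complement protease and of kallikrein, read 7.71 and 7.67 in DEN macrophages, against 9.09 and 9.16 in untreated macrophages (-1.44 ± 0.07). In SEC it read 10.86 and 11.02 with DEN and 10.27 and 10.21 untreated (0.70 ± 0.07, adjusted p = 7.22e-05), and in hepatocytes 12.70 and 12.83 with DEN and 13.17 and 13.10 untreated (-0.37 ± 0.07). It thus fell in macrophages and hepatocytes and rose in SEC. Cfi, the protease that inactivates C3b and C4b, read 9.13 and 9.10 in DEN SEC and 7.70 and 7.72 in untreated SEC (1.40 ± 0.09, adjusted p = 1.79e-06), while its hepatocyte groups overlapped between 12.96 and 13.01.

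C4bp, a plasma cofactor for that protease, read 11.43 and 11.52 in DEN hepatocytes, against 12.07 and 12.04 in untreated hepatocytes (-0.58 ± 0.05), and changed by 0.47 ± 0.05 in SEC. Cd59a read 8.78 and 8.68 in DEN macrophages, against 10.17 and 10.18 in untreated macrophages (-1.45 ± 0.06, adjusted p = 4.85e-09). In hepatocytes Cd59a read 10.91 and 10.97 with DEN and 11.50 and 11.48 untreated (-0.55 ± 0.06), and in SEC 11.44 and 11.37 with DEN and 11.03 and 11.14 untreated (0.32 ± 0.06, adjusted p = 0.00833). The SEC call was lost without DEN SEC replicate 1 (0.28) or untreated SEC replicate 1 (0.26). Cd55, a membrane protein that takes convertases apart, was called higher in macrophages (9.89 and 9.82 DEN, 9.54 and 9.48 untreated, 0.34 ± 0.06) and in hepatocytes (0.26 ± 0.06), and not in SEC, where it read 11.68 and 11.63 with DEN and 11.59 and 11.54 untreated.

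Of the 4 lectin pathway genes 3 were lower and 1 higher in DEN hepatocytes, 2 lower in DEN macrophages and 1 higher in DEN SEC. Among all genes 36.0% were lower and 31.7% higher in hepatocytes, 24.3% lower in macrophages and 2.56% higher in SEC. Mbl1 and Mbl2 encode the mannose-binding lectins, and Masp2 the protease they carry. Mbl2 read 10.09 and 10.22 in DEN hepatocytes, against 11.95 and 11.92 in untreated hepatocytes (-1.78 ± 0.05, adjusted p = 1.76e-10). Mbl1 read 9.92 and 10.01 with DEN and 11.41 and 11.30 untreated (-1.39 ± 0.06), and Masp2 10.54 and 10.61 with DEN and 11.88 and 12.07 untreated (-1.40 ± 0.07). All DEN arrays lay below all untreated arrays for these 3 genes. Outside hepatocytes they were near background. Masp2 was called in SEC (0.29 ± 0.07, adjusted p = 0.039) and Mbl1 in macrophages, where its DEN arrays lay below background and the fall was at least 1.06-fold. The call of Masp2 was lost on leaving out any single SEC or macrophage array, and that of Mbl1 on leaving out any single macrophage or untreated SEC array.

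Masp1, the lectin pathway's other protease, whose gene also yields shorter and alternative products, was highest in SEC (13.83 and 13.60 DEN, 13.64 and 13.81 untreated). The SEC groups overlapped. In macrophages it read 8.44 and 8.42 with DEN, against a mean of 10.96 untreated (-2.54 ± 0.08, adjusted p = 1.25e-09). Its small rise in hepatocytes (9.89 and 10.04 DEN, 9.73 and 9.72 untreated, 0.24 ± 0.08, adjusted p = 0.0267) depends on the arrays and the probe. It was not called without DEN hepatocyte replicate 2 (0.16) or without either untreated hepatocyte array (0.23 and 0.24). A dimmer probe that was highest in untreated hepatocytes read a mean of 8.93 in DEN and 10.46 in untreated hepatocytes, a difference of -1.53.

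**Figure D4:**
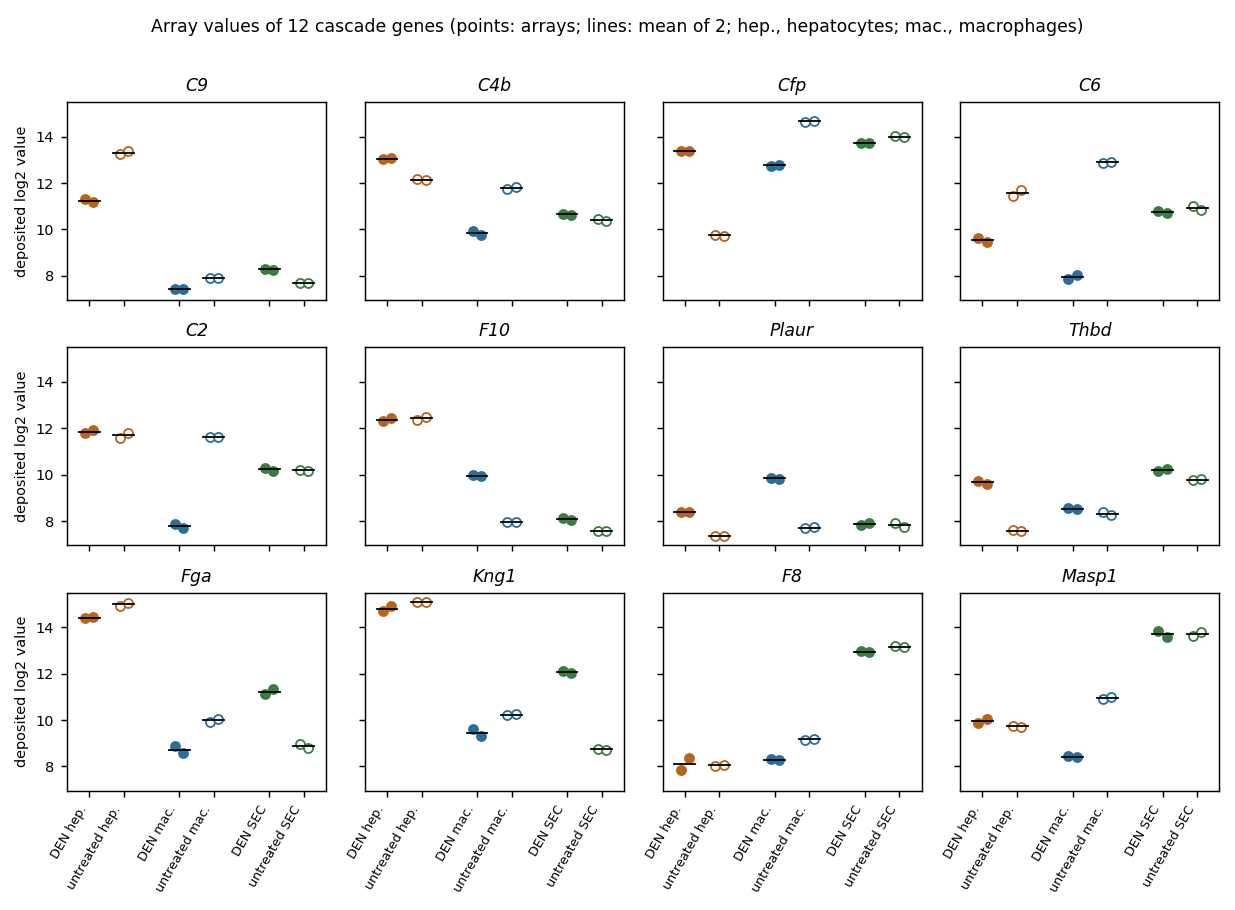
Points give the deposited log2 value of 12 cascade genes on every array, filled for DEN and open for untreated, and lines the mean of the 2 arrays of a group. C9 is lower in DEN than in untreated hepatocytes, C6 and C2 are about 4 to 5 units lower in DEN than in untreated macrophages, and Fga and Kng1 are higher in DEN than in untreated SEC.

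Of the 12 clotting factor and fibrinogen genes tested none was higher and 4 were lower in DEN hepatocytes (median -0.06), beside 31.7% higher and 36.0% lower among all genes. In the other preparations 6 were lower and 3 higher in DEN macrophages (median -0.20), and 8 were higher and none lower in DEN SEC (median 0.54). Among all genes 24.3% were lower and 18.6% higher in macrophages, and 2.56% were higher in SEC. In hepatocytes prothrombin F2 (-0.16), the cofactors F5 (0.18) and F8 (0.05), and the proteases F7 (-0.03), F10 (-0.06), F11 (0.02) and F12 (-0.06) were not called, nor was the fibrinogen gamma chain Fgg (0.11). Those called were Fga (-0.57 ± 0.11, adjusted p = 0.000607), F13b (-0.50 ± 0.05), F9 (-0.44 ± 0.05) and Fgb. Fga, the fibrinogen alpha chain, read 14.40 and 14.43 in DEN hepatocytes, against 14.92 and 15.05 in untreated hepatocytes, near the arrays' maximum. F13b, the carrier subunit of the fibrin-linking factor XIII, read 11.58 and 11.65 with DEN and 12.10 and 12.11 untreated. F9, factor IX, read 11.86 and 11.94 with DEN and 12.32 and 12.37 untreated. The groups of these genes did not overlap. Fgb read 7.46 and 7.39 with DEN and 7.71 and 7.75 untreated, a fall of at least 1.13-fold by a probe that barely left background.

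The upstream sequence of 5 genes that moved unequally in hepatocytes is shown, the pore gene C8b and clotting genes, chosen after their values were seen. C8b, F13b and Fga fell in DEN hepatocytes and hold a match to part of the site of hepatocyte nuclear factor HNF1. Fgg and F10 did not pass the test there and hold no match to any motif searched. These 5 do not stand for the list. Among genes with hepatocytes as untreated main source, HNF1 letters stand in only 6 of 16 that fell there. The 250 bases before the annotated start come from RefSeq (GRCm38.p6), are written 5′ to 3′ on the gene's strand, and end at the start. Capitals mark motif matches on either strand: GTTAAT for HNF1, TTNNGNAA for C/EBP, TTCNNNGAA for STAT3 and CAAAGTCCA for HNF4, of which matches may overlap. GTTAAT is only part of the HNF1 site, and an HNF1 match below means these letters.
C8b (chr4:104766067-104766316, + strand): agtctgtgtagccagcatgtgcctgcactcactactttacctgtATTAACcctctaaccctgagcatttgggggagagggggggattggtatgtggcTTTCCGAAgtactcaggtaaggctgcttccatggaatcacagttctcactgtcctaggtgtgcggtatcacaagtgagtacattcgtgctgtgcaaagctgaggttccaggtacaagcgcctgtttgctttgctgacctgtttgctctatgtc
F13b (chr1:139501457-139501706, + strand): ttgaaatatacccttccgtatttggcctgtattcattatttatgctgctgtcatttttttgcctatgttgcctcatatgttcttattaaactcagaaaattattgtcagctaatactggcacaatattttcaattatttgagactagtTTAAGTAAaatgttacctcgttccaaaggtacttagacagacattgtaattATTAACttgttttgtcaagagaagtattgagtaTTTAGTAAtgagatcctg
Fga (chr3:83025903-83026152, + strand): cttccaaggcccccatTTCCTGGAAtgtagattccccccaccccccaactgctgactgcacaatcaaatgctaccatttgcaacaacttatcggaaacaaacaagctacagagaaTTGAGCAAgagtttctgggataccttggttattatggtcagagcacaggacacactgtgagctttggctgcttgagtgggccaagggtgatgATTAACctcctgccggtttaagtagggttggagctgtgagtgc
Fgg (chr3:83007474-83007723, + strand): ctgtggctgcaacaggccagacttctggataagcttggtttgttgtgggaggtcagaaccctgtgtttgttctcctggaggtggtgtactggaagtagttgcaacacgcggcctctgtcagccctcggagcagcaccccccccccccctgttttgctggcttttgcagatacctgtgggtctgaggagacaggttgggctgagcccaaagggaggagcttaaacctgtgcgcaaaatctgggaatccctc
F10 (chr8:13037058-13037307, + strand): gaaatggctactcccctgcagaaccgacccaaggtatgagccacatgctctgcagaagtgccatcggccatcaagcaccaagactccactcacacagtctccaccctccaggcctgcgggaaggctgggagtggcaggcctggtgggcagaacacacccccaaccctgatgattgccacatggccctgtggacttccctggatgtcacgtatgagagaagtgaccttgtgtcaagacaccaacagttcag

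The HNF1 match begins 206 bases before the start in C8b, 51 bases in F13b and 43 bases in Fga. C/EBP matches begin 153 bases before the start in C8b, 102 and 18 bases in F13b and 135 bases in Fga, and the STAT3 match of Fga begins 234 bases before it. Of 32851 promoters in the table, 6.43% hold the HNF1 letters, 36.8% the C/EBP letters, 7.02% the STAT3 letters and 0.384% the HNF4 letters. Genes on chromosome 18, here Proc, which fell in DEN hepatocytes, were left out of the counts of cascade genes. Of 34 other tested cascade genes with an entry, 7 hold HNF1, 16 C/EBP, 6 STAT3 and 0 HNF4. Among those with hepatocytes as untreated main source, HNF1 letters stand in 6 of 16 that fell in DEN hepatocytes and in 0 of 9 that did not, C/EBP letters in 10 of 16 and 1 of 9, and STAT3 letters in 5 of 16 and 0 of 9. Among single genes, Cfp rose most in DEN hepatocytes and holds an HNF1 match that begins 18 bases before its start. C9, Mbl2, C1s and C8g fell there and hold no HNF1 match. F11, F12 and Serpinc1 count as not fallen by their brightest probes, and each had a dimmer probe that was lower. The counts describe letters in a short window and were not tested.

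In SEC the fibrinogen chains Fga and Fgg rose most among clotting genes, while the probe of the third chain, Fgb, lay below background in both groups. Fga read 11.11 and 11.32 in DEN SEC and 8.95 and 8.79 in untreated SEC (2.35 ± 0.11, adjusted p = 1.48e-07). Fgg read 10.63 and 10.79 in DEN SEC and 8.61 and 8.59 in untreated SEC (2.11 ± 0.06, adjusted p = 2.43e-09). Both fell in macrophages, Fga to 8.88 and 8.57 with DEN, against 9.93 and 10.05 untreated (-1.27 ± 0.11), and Fgg to 8.41 and 8.33 with DEN, against 9.68 and 9.69 untreated (-1.31 ± 0.06). F2 read 9.87 and 9.87 in DEN SEC and 8.46 and 8.26 in untreated SEC (1.51 ± 0.08), and F9 read 8.28 and 8.29 in DEN SEC and 7.57 and 7.58 in untreated SEC (0.71 ± 0.05, adjusted p = 4.66e-06). F10, F11, F12 and F13b were called in SEC with changes between 0.30 and 0.57, and the call of F11 was lost on leaving out any single SEC or DEN macrophage array.

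Factor X, F10, the protease that makes thrombin, rose in macrophages. It read 9.97 and 9.95 in DEN macrophages, against 7.96 and 7.95 in untreated macrophages (2.01 ± 0.06, adjusted p = 6.79e-10). Its hepatocyte arrays, between 12.30 and 12.50, overlapped between the groups, and hepatocytes were its main source with either treatment. The cofactor F5 (0.78 ± 0.08, adjusted p = 1.06e-05) and the protease F7 (0.28 ± 0.05) were also called higher in DEN macrophages. F8 fell there, to 8.31 and 8.26 with DEN, against 9.16 and 9.17 untreated (-0.88 ± 0.13). In the same comparison 0 of 10 hepatocyte markers were called higher and 3 lower, while all 7 neutrophil markers and 4 of 5 monocyte markers were higher, and their part was not tested.

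Among the 6 fibrinolysis and contact genes 3 were higher and 2 lower in DEN hepatocytes, 1 higher and 3 lower in DEN macrophages, and 4 higher and none lower in DEN SEC. The shares of all genes were 31.7% higher and 36.0% lower in hepatocytes, 18.6% and 24.3% in macrophages, and 2.56% higher in SEC. Kng1, the kininogen from which bradykinin is cut, had the largest rise of the 45 genes in SEC. It read 12.12 and 12.04 in DEN SEC, against 8.76 and 8.72 in untreated SEC (3.35 ± 0.09, adjusted p = 2.43e-09). It read 9.60 and 9.32 in DEN and 10.22 and 10.26 in untreated macrophages (-0.78 ± 0.09), and 14.70 and 14.92 in DEN and 15.07 and 15.11 in untreated hepatocytes (-0.28 ± 0.09, adjusted p = 0.0173), close to the arrays' maximum. The 2 arrays of DEN hepatocytes differed by nearly as much as the groups did, and the call was lost without DEN hepatocyte replicate 1 (-0.17) or untreated hepatocyte replicate 2 (-0.26). That is the brightest Kng1 probe. The next brightest changed by 0.20 in hepatocytes and the dimmest by -0.19, so the direction depends on the probe. Klkb1, prekallikrein, read 9.33 and 9.59 in DEN hepatocytes, against 10.98 and 10.73 in untreated hepatocytes (-1.40 ± 0.09, adjusted p = 8.73e-08).

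In hepatocytes the activator Plat and the urokinase receptor Plaur rose. Plat read 8.49 and 8.57 in DEN hepatocytes, against 7.37 and 7.31 in untreated hepatocytes, where it lay below background, and was at least 2.03-fold higher. Plaur read 8.39 and 8.40 in DEN hepatocytes, against 7.38 and 7.34 in untreated hepatocytes, at least 1.85-fold higher. Urokinase itself, Plau, from the other cascade genes, read 7.69 and 7.73 in DEN hepatocytes, against 7.43 and 7.60 in untreated hepatocytes (0.20 ± 0.06, adjusted p = 0.0131). In macrophages Plaur read 9.88 and 9.81 with DEN and 7.69 and 7.76 untreated (2.12 ± 0.06, adjusted p = 5.49e-10), the largest rise of the 45 genes there. Its SEC groups overlapped. In the comparison of DEN with untreated macrophages 4 of 5 monocyte markers were higher, with a summed level of 14.48 to 14.57 in DEN macrophages and 14.10 on both untreated arrays. All 7 neutrophil markers were higher too, with a summed level of 15.49 to 15.82 in DEN and at most 13.01 in untreated macrophages. The part of these markers was not tested.

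Plg, plasminogen, was not called in hepatocytes, and Serpinf2, the main inhibitor of plasmin, was called slightly higher there. Plg read 12.97 and 13.15 with DEN and 12.97 and 13.02 untreated there, overlapping groups, and Serpinf2 13.19 and 13.31 with DEN and 12.94 and 13.11 untreated (0.23 ± 0.06). The Serpinf2 call in hepatocytes was lost without DEN hepatocyte replicate 2 (0.17) or untreated hepatocyte replicate 1 (0.14). In SEC both rose, Plg to 9.05 and 8.85 with DEN, against 7.67 and 7.62 untreated (1.31 ± 0.08), and Serpinf2 to 9.13 and 9.12 with DEN, against 7.60 and 7.66 untreated (1.49 ± 0.06, adjusted p = 8.59e-08). In macrophages Plg read 7.52 and 7.49 with DEN and 8.14 and 8.05 untreated (-0.59 ± 0.08), and Serpinf2 changed by -0.25 ± 0.06, a call lost without DEN macrophage replicate 2 (-0.22) or untreated macrophage replicate 1 (-0.24).

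Of the 7 tested anticoagulant genes 2 were higher and 2 lower in DEN hepatocytes, 1 higher and 4 lower in DEN macrophages, and 4 higher and none lower in DEN SEC. Among all genes 31.7% were higher and 36.0% lower in hepatocytes, 18.6% and 24.3% in macrophages, and 2.56% were higher in SEC. Thbd, the endothelial receptor that turns thrombin towards protein C, read 9.73 and 9.62 in DEN hepatocytes, against 7.60 and 7.58 in untreated hepatocytes (2.08 ± 0.06, adjusted p = 1.97e-10). In SEC Thbd read 10.17 and 10.26 with DEN and 9.77 and 9.82 untreated (0.42 ± 0.06), a call lost with background subtracted. In macrophages it changed by 0.21 ± 0.06, a call lost without untreated macrophage replicate 2 (0.13) or either DEN macrophage array (0.19 and 0.23). Pros1, protein S, the cofactor of activated protein C, read 10.72 and 10.69 in DEN hepatocytes, against 9.85 and 9.71 in untreated hepatocytes (0.92 ± 0.09, adjusted p = 2.72e-06). It fell in macrophages, to 8.81 and 8.80 with DEN, against 10.31 and 10.14 untreated (-1.42 ± 0.09), and its SEC groups, 12.32 and 12.22 with DEN and 12.32 and 12.58 untreated, were not called different. Both genes had SEC as main source. In the DEN hepatocyte preparation 6 of 7 SEC markers were higher (summed level 12.80 to 12.85 DEN, 12.05 to 12.06 untreated), and Stab2 (-0.05) was not called. All 4 vascular endothelial markers were higher there too (summed level 10.75 to 10.76 DEN, 9.56 to 9.66 untreated). Their part was not tested.

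The other anticoagulants had hepatocytes as main source, except Procr and Tfpi. Serpind1, heparin cofactor II, fell in hepatocytes (11.04 and 11.32 DEN, a mean of 12.02 untreated, -0.84 ± 0.08, adjusted p = 1.81e-06). Proc, protein C, read 12.57 and 12.65 with DEN and 12.95 and 13.13 untreated there (-0.43 ± 0.06). Serpinc1, antithrombin, overlapped in hepatocytes (11.16 and 11.41 DEN, 10.98 and 11.29 untreated). All 3 rose in SEC. Proc read 8.62 and 8.65 in DEN SEC and 7.53 and 7.55 in untreated SEC (1.09 ± 0.06, adjusted p = 8.36e-07). Serpinc1 read 8.25 and 8.18 in DEN SEC, against 7.42 and 7.36 in untreated SEC, below background, and was at least 1.72-fold higher, and Serpind1 changed by 0.48 ± 0.08, a call lost without DEN SEC replicate 2 (0.45). In macrophages Proc (-0.45 ± 0.06), Serpinc1 (-0.44 ± 0.10) and Tfpi (7.56 and 7.66 DEN, 8.45 and 8.17 untreated, -0.70 ± 0.08) fell.

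Probes of a gene did not always give 1 answer. Of the 45 genes 21 had at least 2 probes above background, and the changes of a gene's probes in hepatocytes spanned a median of 0.54. All probes of 11 genes were below 0 and all of 2 genes above 0, 8 genes had probes on both sides, and 9 spanned over 1 log2 unit. Several clotting genes with no called change by their brightest probe had a dimmer probe that was much lower in DEN hepatocytes. For factor XII, F12, the probes changed by -0.06, -0.28 and -1.80, for F11 by 0.02, -0.09 and -1.44, for Plg by 0.07, -0.08 and -1.28, and for Serpinc1 by 0.15 and -1.59. C4b, which has a near-identical neighbour gene, changed by 0.91 with its brightest probe and by -0.06 and -0.18 with the other probes. By contrast C1s (-1.75 and -1.68), Masp2 (-1.36 to -1.69) and Klkb1 (-1.40 and -1.57) changed alike with every probe. Cd55, Cd59a and C1s have close copies too. Which transcripts or copies each probe reads was not tested.

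**Figure D5:**
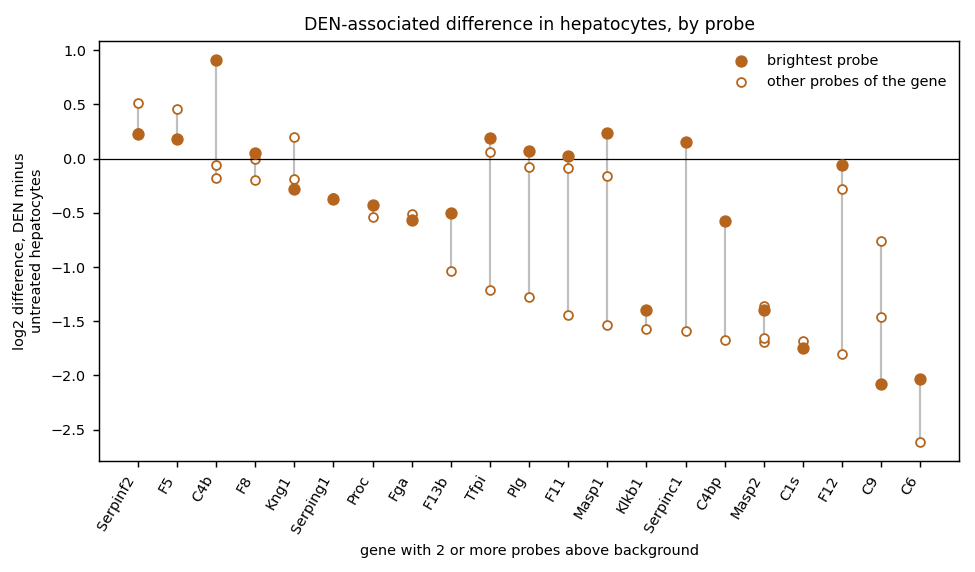
Each column is 1 of the 21 cascade genes with at least 2 probes above background, with points for the log2 difference, DEN minus untreated hepatocytes, of its brightest probe (filled) and its other probes (open). C1s, Masp2 and Klkb1 have close points, while F12, F11, Plg, Serpinc1, Masp1 and Tfpi have a point below -1 beside a brightest probe near 0.

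Other genes of the cascades, 54 tested of 70 listed, changed in the same preparations. Of these 20 were higher (37.0%, beside 31.7% of all genes) and 25 lower (46.3%, beside 36.0%) in DEN hepatocytes. In DEN macrophages 11 were higher (20.4%, beside 18.6%) and 18 lower (33.3%, beside 24.3%), and in DEN SEC 9 were higher (16.7%, beside 2.56%) and 2 lower (3.70%, beside 0.995%). In hepatocytes the largest rises were those of Anxa2, a cell-surface receptor for plasminogen (4.07 ± 0.14), and of C1qb (3.04 ± 0.10) and C1qc (2.78 ± 0.06), chains of the classical pathway's recognition protein. The largest falls there were those of Asgr2, a chain of the asialoglycoprotein receptor (-1.81 ± 0.06), Proz, protein Z (-1.76 ± 0.05), and C1qbp (-1.75 ± 0.09). In macrophages F13a1, the catalytic subunit of factor XIII (1.72 ± 0.08), Anxa2 (1.69 ± 0.14) and Cd93 (1.51 ± 0.06) rose most. The complement receptor Vsig4 (-5.00 ± 0.06), the ficolin Fcna (-4.02 ± 0.06) and the collectin Colec11 (-2.96 ± 0.09) fell most there, and Vsig4 is also on the Kupffer cell list. In SEC vitronectin, Vtn (1.87 ± 0.10), von Willebrand factor, Vwf (0.97 ± 0.05), and Hgfac (0.86 ± 0.05) rose most, and C1qb (-0.49 ± 0.10) and Vsig4 (-0.37 ± 0.06) fell.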

How the data were processed

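The authors deposited a table of log2 values for the 12 arrays. The submitters' processing notes name lumi. Its version and the transform used, log2 or a log2-like one, are not stated there. The arrays share 1 distribution, and the values are not background-subtracted, which can shrink the differences of dim probes. The non-normalized table's 24 columns match no label and were not used.

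Probes were named through the platform annotation and a GRCm38.p6 gene table (34885 of 45281 with 1 symbol, 18 with several, 10378 with none). limma 3.58.1 in R 4.3.3 fitted 6 group means with lmFit and eBayes, two-sided, after tests on simulated data. Python 3.11.15 and matplotlib 3.10.9 drew the figures. A fold against a group with both arrays below background uses the background as the lower level and is a bound.

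The members, the other cascade genes and the markers were chosen with earlier results of these data known. Array values are given for each called gene among the 4 largest changes of its role in any cell type and for genes whose main source was not hepatocytes or differed between treatments, and 3 changes per direction from the other cascade genes. Alternatives changed the filter, background, probe choice, scaling, prior, fold threshold, arrays in the fit and replicate block.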

Additional observations from a re-analysis of the deposited data

Results flagged for a closer look

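18 differences stood out because a gene's DEN changes ran opposite ways in 2 preparations, each by at least 0.5 log2 and called, and the difference itself passed limma's interaction test. Values are the first preparation's change minus the second's.

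Between hepatocytes and macrophages these were Cfp (5.52), C4b (2.86), Pros1 (2.34) and Cfb (1.76), each higher in DEN hepatocytes and lower in DEN macrophages. The dimmer probes of C4b were slightly lower in DEN hepatocytes too (-0.06 and -0.18). Between hepatocytes and SEC they were Fga (-2.92), C9 (-2.67), C8g (-2.21), C8b (-1.85) and C8a (-1.11), each lower in DEN hepatocytes and higher in DEN SEC. Between macrophages and SEC they were Kng1 (-4.12), Fga (-3.61), Fgg (-3.42), F2 (-2.19), Serping1 (-2.13), Plg (-1.90), Cfb (-1.86), C8g (-1.38) and C8b (-1.36), each lower in DEN macrophages and higher in DEN SEC. The largest adjusted p among them was 2.49e-05, for C8b between macrophages and SEC.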

How the results depend on the processing

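Of the 89 called changes of cascade genes, 75 kept their call and direction under every alternative (the 2-fold minimum was applied to counts only), 14 lost the call under some (Masp1, Kng1 and Serpinf2 in hepatocytes, C8a, Mbl1, Serpinf2 and Thbd in macrophages, C8a, Cfp, Masp2, Cd59a, F11, Thbd and Serpind1 in SEC), and 1 of those 14 reversed: with the mean of all above-background probes, Masp1 in hepatocytes was -0.49. At a minimum of 2-fold, 4 of the 45 cascade genes were higher and 9 lower in DEN hepatocytes, 2 higher and 11 lower in DEN macrophages, and 8 higher and 0 lower in DEN SEC. Of all 12462 genes, 1271 were higher and 1084 lower in hepatocytes, 359 and 464 in macrophages, and 85 and 1 in SEC. At that minimum macrophages were the untreated main source of 1 cascade gene (392 of all genes), and SEC were the main source of 6 among DEN preparations (596 of all genes). The single gene lower in DEN SEC, Cfp, depended on the setting: 0 genes were lower with background subtracted or cyclic loess, and 2 with only the SEC arrays in the fit. Leaving out 1 array each gave 0 to 2 genes lower in SEC (0 without DEN SEC replicate 1 or untreated SEC replicate 1, 2 without either DEN hepatocyte array). The other leave-one-out ranges were 8 to 13 higher and 19 to 21 lower in DEN hepatocytes, 5 to 6 and 23 to 28 in DEN macrophages, and 22 to 27 higher in DEN SEC. With the replicate block, 11 were higher and 20 lower in DEN hepatocytes, 6 and 26 in DEN macrophages, and 25 and 1 in DEN SEC. With the mean of all above-background probes, 10 were higher and 25 lower in DEN hepatocytes. Of those 25, 19 were also called lower by the brightest probe, so the falls in hepatocytes depend in part on the probe choice. The labels' replicate numbers did not pair the arrays: DEN and untreated differences between replicates 1 and 2 correlated across genes with r = 0.011 in hepatocytes, -0.038 in macrophages and 0.033 in SEC. Limits: 2 arrays per group and values near background or the maximum of 15.19 bound what could be detected. The causes of these differences were not tested.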
